A study of Mus musculus with 19 samples.

Results

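Chromatin accessibility at the genes of the classical axon guidance families was followed while mouse neural stem and progenitor cells turned into astrocytes, either untreated or given TNF, a cytokine of inflammation. The genes were the protein-coding semaphorins, plexins, ephrins, Eph receptors, Slits, Robos, netrin-1 and genes whose symbol begins with Unc5 in the RefSeq annotation of GRCm38, 65 genes of 21896. A peak was assigned to a gene when its centre lay in the gene body or within 5 kb of either end, which gave 571 peaks of 90154. All 571 passed the filter on low values, and every gene had at least 1 peak. Of these peaks, 504 had the centre inside a gene body and 67 in the flanks. A further protein-coding gene lay as near to 37 of them, and 2 peaks were shared by the neighbours Robo3 and Robo4. The symbol rule also took in Unc50 and Unc5cl, which are not netrin receptors and are counted apart.

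The cells came from the ventricular zone of wild-type C57BL/6J mouse embryos at embryonic day 14 and grew as floating neurospheres with EGF (NSP, 3 libraries). Astrocytes were made by moving them into medium with 10% fetal bovine serum for 24 h (3 libraries), 72 h (3) or 1 week (4), and TNF at 50 ng/ml was present in further cultures for 24 h (3) and 72 h (3). The serum was thus common to every differentiated group, the 1 week group had no TNF counterpart, and all cells are a culture of embryonic progenitors. ATAC-seq, in which a transposase cuts accessible DNA, gave a normalised read count per peak and library. The peaks assigned to these genes were windows of 500 bases in 570 of 571 cases, so that values of different peaks refer to the same length.

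Axon guidance genes encode short- and long-range cues and their receptors. Semaphorins signal through plexins, Slits through Robos, netrin-1 through DCC and Unc5 receptors, and ephrins through Eph receptors, and most of these pairs steer growth cones by changing the actin cytoskeleton. Several act outside axons as well: they guide migrating precursors, set boundaries between cells in the germinal zones and are carried by astrocytes in the developing and injured brain.

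The 19 libraries had 9640256 to 39349111 reads in peaks, and the NSP libraries were the deepest of all (28636739 to 39349111). Replicates of a group correlated across all peaks at a Spearman rho of 0.942 or more except in NSPs, where the range was 0.916 to 0.983. Without NSP replicate 1, 131 member peaks were higher and 167 lower at 24 h against NSPs, and 164 were higher and 245 lower at 1 week. The names of the 72 h and 1 week libraries carry a tag that NSP and 24 h libraries lack, so for 72 h or 1 week against NSPs the tag and the group cannot be told apart. Of the 212 peaks with 3 reads or fewer in all 10 tagged libraries and 20 or more in all 9 untagged ones, 0 were member peaks. Of markers fixed for other cell types, none of 5 endothelial and mural and none of 4 fibroblast genes had a peak within 1 kb of a start, and 1 of 7 microglial genes had one. The start peaks of 3 of 7 neuronal genes summed to 1632 to 1818 in NSP libraries and 1150 to 1525 in the others, and those of 2 of 8 oligodendrocyte-lineage genes to 1552 to 1867 and 548 to 895. Those of 5 of 6 neural stem or progenitor genes summed to 4467 to 4834 in NSP libraries and 2095 to 3015 in the others. The fall by 1 week lay mainly in Hes5, with a mean of 1976 in NSPs and 93.0 at 1 week, whereas Prom1 went from 162 to 390, Nes from 435 to 471, Sox2 from 1258 to 1280 and Egfr from 593 to 513. Those of 6 of 8 astrocyte genes summed to 1632 to 1843 in TNF-treated libraries and 2104 to 2482 in the others, so the sum was lower with TNF. By gene, TNF lowered Kcnj10 at 24 h (log2 change -0.36) and Gfap and S100b at 72 h (-1.10 and -0.54). None of the others was called with TNF. At 1 week against NSPs 3 of the 6 were called higher and 1 lower. The lower one was S100b, with a mean of 562 in NSPs and 178 at 1 week, while Gfap went from 108 to 258. Aqp4 and Slc1a2, which mark astrocytes, had no start peak. Over whole gene bodies, 9 of 17 endothelial and mural marker peaks were higher and 5 lower at 1 week, and 9 and 1 at 72 h with TNF, both against NSPs, and TNF at 24 h gave 4 higher and 1 lower. Of 74 neuronal marker peaks 19 were higher and 38 lower at 1 week, of 34 oligodendrocyte-lineage ones 7 and 18, of 12 microglial ones 1 and 7 and of 4 fibroblast ones 2 and 0. The part of these cell types in the results below was not tested. Fewer cells with an open region and less opening per cell cannot be told apart in such bulk libraries.

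Differentiation first was examined by setting each group against NSPs. A call is a Benjamini-Hochberg adjusted p under 0.05 in limma-trend, adjusted over 88919 peaks. After 1 week, 157 of the 571 peaks were higher and 240 lower compared with NSPs, or 27.5% and 42.0%, while 33.7% of all peaks were higher and 33.6% lower. At 24 h, 123 were higher and 150 lower (24.2% and 23% of all peaks). At 72 h, 22.8% of the members were higher and 39.2% lower (28.3% and 30.9% of all peaks). With TNF, 139 were higher and 168 lower at 24 h (26.5% and 25.5% of all peaks), and 144 were higher and 212 lower at 72 h (29.1% and 30.9% of all peaks). The member peaks had a median log2 change of -0.13 after 24 h, -0.25 after 72 h and -0.24 after 1 week, and all peaks one of -0.07, -0.06 and 0.01. These groups share the NSP libraries. The balance at the early times rested on the scaling: by total reads in peaks, 155 member peaks were higher and 101 lower at 24 h, 164 and 110 at 24 h with TNF, 183 and 160 at 72 h and 179 and 178 at 72 h with TNF, whereas 152 were higher and 257 lower at 1 week. The balance of all peaks moved with that scaling. Higher calls then made up 60.5% of member calls at 24 h, 53.4% at 72 h and 37.2% at 1 week. Over all peaks they made up 67.8%, 63.8% and 46.4%. In the main fit the members had 45.1%, 36.7% and 39.5%, and all peaks 51.2%, 47.8% and 50.1%. Between 72 h and 1 week, 111 were higher and 112 lower (22.5% and 16.2% of all peaks), but 39 and 219 with total-read scaling, under which the median over all peaks went from 0.02 to -0.31 (log2), and 74 and 143 with TMM scaling, so that step has no settled balance. Among the untreated groups, the mean over libraries was highest in NSPs at 252 member peaks (44.1%, against 36.8% of all peaks). It was highest at 24 h in 108 (18.9%, against 15.3%), at 72 h in 58 (10.2%, against 14.0%) and at 1 week in 153 (26.8%, against 33.9%).

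Receptors and ligands moved in both directions. Of 270 peaks of receptor genes, 25.2% were higher and 45.9% lower at 1 week relative to NSPs, with a median log2 change of -0.38. Of 294 peaks of ligand genes, 28.9% were higher and 38.8% lower, with a median of -0.17. Among the families with more than 10 peaks, the secreted semaphorins had more gains than losses, 18 higher and 11 lower of 47, and that order held under each of the other scalings tried. The plexins had 21 higher and 40 lower of 81, the Unc5 receptors 10 and 24 of 47, the Robos 11 and 21 of 43, the EphA receptors 11 and 22 of 51, the Slits 15 and 27 of 60, the membrane semaphorins 41 and 58 of 141, and the ephrin-Bs 0 and 5 of 6. The EphB receptors (15 and 17 of 48), the ephrin-As (6 and 7 of 23) and netrin-1 (5 and 6 of 17) were near balance. Unc5cl had 4 higher and 2 lower of 6. Most genes held peaks of both kinds: 46 genes had at least 1 higher and 57 at least 1 lower peak at 1 week, and 43 had both.

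**Figure D1:**
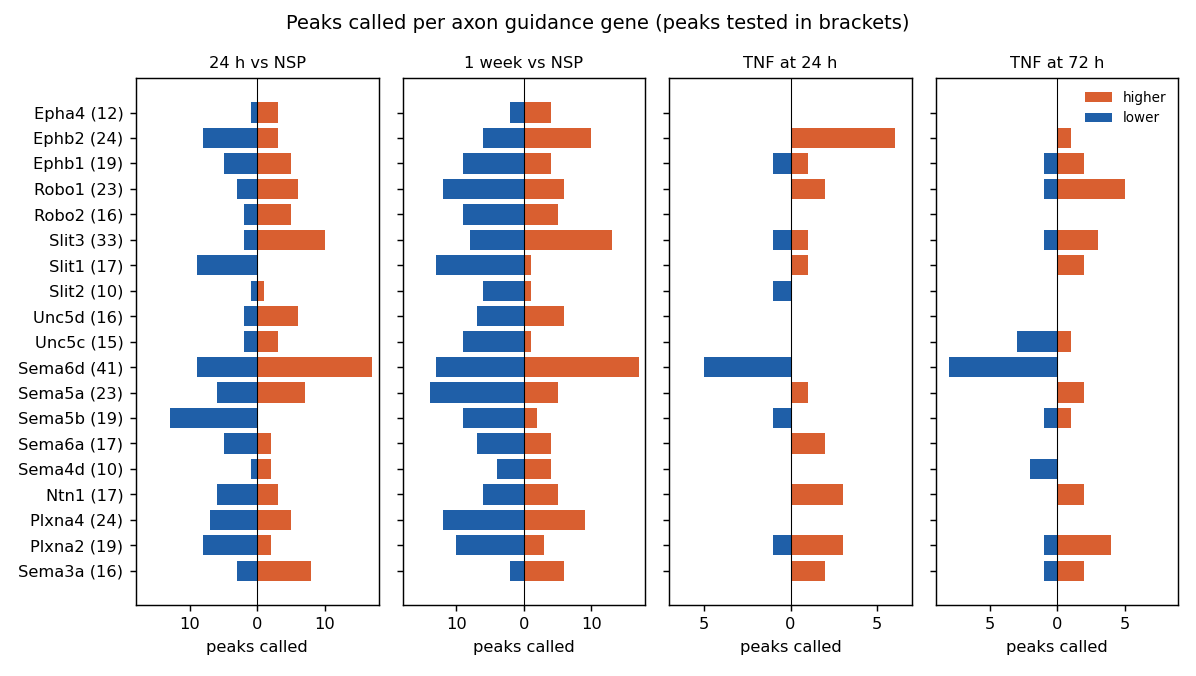
Number of peaks called higher (right, orange) or lower (left, blue) for each gene with 10 or more peaks, at 24 h and 1 week against NSPs and with TNF at 24 h and 72 h. Slit1 has 13 lower and 1 higher peak at 1 week and Slit3 13 higher and 8 lower, while under TNF all called Sema6d peaks are lower and all called Ephb2 peaks higher.

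The peaks at gene starts were taken first. Of the 65 genes, 56 have a start in the RefSeq promoter table of GRCm38.p6. Plxna4, Plxna1, Unc5d, Sema3b, Sema3f, Ntn1, Efnb3, Sema6a and Slit1 have none there, and either end of the gene was used for them, so their peak may lie at the 3′ end. A peak centre lay within 1 kb of such a point in 59 genes. Efna5, Robo3, Robo4, Sema3a, Sema4d and Unc5cl had no such peak. Of the 59 start peaks, 28 were lower and 1 higher after 24 h against NSPs, 43 were lower and 2 higher at 72 h, and 36 were lower and 6 higher at 1 week. Start-site peaks of all genes were also lower in the first days, 42.8% of 10854 at 24 h and 57.8% at 72 h. With total-read scaling 16 member start peaks were lower and 4 higher at 24 h and 31 and 8 at 72 h, against 18.8% and 35.5% of all start-site peaks lower. At 1 week 27.0% of them were lower and 25.6% higher, with a median log2 change of 0.01, while the member start peaks had a median of -0.44. Under the other scalings, 37 to 40 member start peaks were lower at 1 week, against 29.2% to 36.5% of all start-site peaks. Between 72 h and 1 week, 22 member start peaks were higher and 4 lower (37.3% and 6.78%, against 59.6% and 4.52% of all start-site peaks). With total-read scaling 5 were higher and 19 lower (8.47% and 32.2%, against 23.1% and 13.4%). A loess correction gave 3 and 8 (5.08% and 13.6%, against 9.43% and 5.62%). No direction is thus given for that step, but under each of these a smaller share of member than of all start-site peaks was higher.

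**Figure D2:**
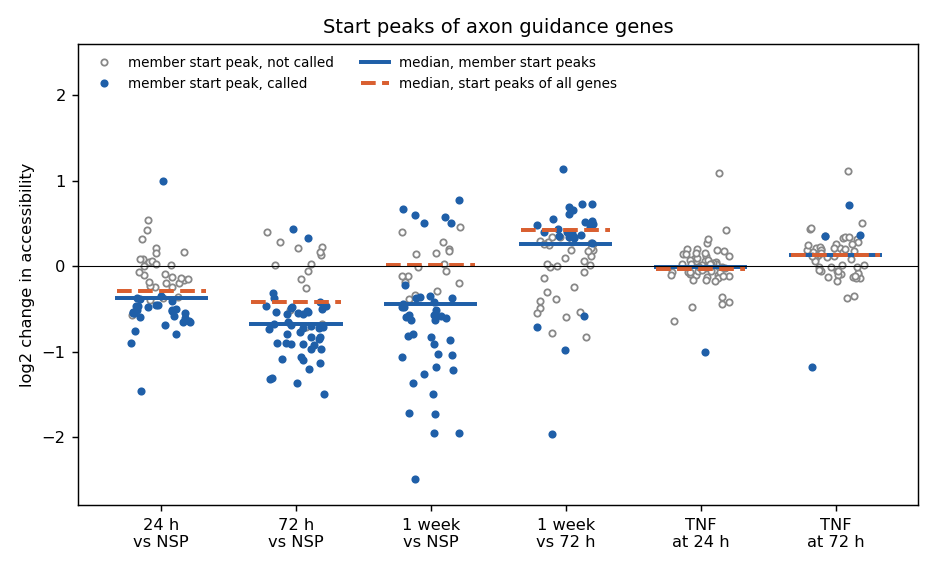
Log2 change in accessibility at the start peak of each of 59 axon guidance genes for 6 comparisons, with called peaks filled, the median of these genes as a blue line and the median of the start-site peaks of all genes as a dashed orange line. At 1 week against NSPs the median is -0.44 for the axon guidance genes and 0.01 for all genes, and under TNF both medians lie within 0.13 of 0.

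Plxnb3, a plexin that binds Sema5a, had the largest loss at a start. Its peak, chrX:73756563-73757063, is centred 290 bp upstream of the listed start. The NSP libraries gave 710, 583 and 653 normalised reads, the 24 h libraries 269, 243 and 196, the 72 h libraries 211, 227 and 246 and the 1 week libraries 97.0, 108, 132 and 124.4. All NSP libraries lay above all others. The log2 change at 1 week was -2.49 ± 0.15 SE (limma-trend adjusted p 1.2e-14). The start of Epha10, an Eph receptor whose kinase domain is held to be inactive, went from 322 ± 51.3 in NSPs (SD, n = 3) to 84.1 ± 22.6 at 1 week (n = 4), a log2 change of -1.95. The start of Efna2, a ligand of EphA receptors, changed by -1.71, that of Unc5a, a netrin receptor, by -1.27, and that of Ephb6, a further kinase-inactive receptor, by -1.22, all with adjusted p-values of 1.3e-07 or less in the limma-trend fit. The Epha10 start peak also lies near Maneal and the Efna2 start peak near Fam174c.

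The highest start peaks had other courses. Ephb3, a receptor of ephrin-Bs on progenitors, had the highest one, with 1929 to 3153 normalised reads in NSPs, 1378 to 1795 at 72 h and 2380 to 3200 at 1 week. It was lower at 72 h than in NSPs (log2 change -0.56 ± 0.14 SE, limma-trend adjusted p 0.0013), and at 1 week it differed by 0.17 (adjusted p 0.26). Unc5b, a netrin receptor, went from 1374 to 2161 in NSPs to 760 to 900 at 72 h and 1069 to 1285 at 1 week, with a log2 change of -0.42 at 1 week. The 6 start peaks that were higher at 1 week than in NSPs were those of Efna4, Epha2, Ephb2, Ephb4, Sema3b and Sema3f. Sema3b and Sema3f have no listed start, so their peaks lie by a gene end that may be the 3′ end. That of Sema3b also lies near Ifrd2 and Lsmem2, and that of Efna4 near Adam15. Efna4, a GPI-anchored ephrin, had 214, 236 and 244 normalised reads in NSPs and 368, 376, 346 and 380 at 1 week (log2 change 0.67 ± 0.12 SE, limma-trend adjusted p 1.7e-05). Ephb4, which is known best from veins, had its single peak there, with 519, 646 and 583 in NSPs and 864, 788, 893 and 767 at 1 week (0.51 ± 0.10 SE, adjusted p 3.8e-05). Epha2 had 136, 130 and 132 in NSPs and 181, 217, 156 and 205 at 1 week (0.50 ± 0.17 SE, adjusted p 0.0089). In each of the last 3 the 1 week libraries lay above all NSP libraries.

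The sequences of 4 starts are shown because their peaks rose, Efna4, Epha2 and Ephb4 with time and Ephb1 with TNF, as described further on, and because their upstream window lies outside the gene body. Each is the 250 bases upstream of the RefSeq start in GRCm38.p6, 5′ to 3′ on the strand of the gene, and lies within the start peak for 248 to 250 of its bases. Capitals mark matches on either strand to AP-1 (TGANTCA), CRE (TGACGTCA), an NFI-type site (TTGGCA), TEAD (GGAATG), NRF2 (TGACNNNGC) or the NF-kB consensus.
Ephb1, chr9:102354694-102354943, minus strand: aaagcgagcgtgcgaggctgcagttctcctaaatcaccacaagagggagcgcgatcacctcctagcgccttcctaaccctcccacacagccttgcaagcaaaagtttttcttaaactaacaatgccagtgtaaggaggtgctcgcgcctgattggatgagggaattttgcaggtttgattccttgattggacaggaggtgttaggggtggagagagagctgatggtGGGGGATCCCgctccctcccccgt
Efna4, chr3:89338029-89338278, minus strand: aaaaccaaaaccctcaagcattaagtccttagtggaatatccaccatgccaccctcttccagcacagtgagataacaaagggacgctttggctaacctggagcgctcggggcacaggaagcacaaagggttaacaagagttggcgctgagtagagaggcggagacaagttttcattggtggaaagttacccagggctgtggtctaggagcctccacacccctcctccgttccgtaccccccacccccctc
Epha2, chr4:141300971-141301220, plus strand: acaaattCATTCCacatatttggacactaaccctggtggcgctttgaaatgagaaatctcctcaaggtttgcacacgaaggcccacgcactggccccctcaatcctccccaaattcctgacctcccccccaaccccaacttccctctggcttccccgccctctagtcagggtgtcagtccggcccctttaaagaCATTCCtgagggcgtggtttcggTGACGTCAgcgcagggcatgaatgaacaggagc
Ephb4, chr5:137349859-137350108, plus strand: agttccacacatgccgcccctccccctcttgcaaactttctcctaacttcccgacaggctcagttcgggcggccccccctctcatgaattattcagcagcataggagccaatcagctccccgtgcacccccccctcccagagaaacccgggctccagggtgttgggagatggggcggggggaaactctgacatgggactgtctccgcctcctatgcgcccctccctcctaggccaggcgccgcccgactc

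Ephb1 holds 1 match to the NF-kB consensus, which 3.90% of 32851 upstream windows of all RefSeq starts and 4 of the 72 member windows hold. Epha2 holds the CRE (1.55% of all windows, 1 of 72) and 2 TEAD matches (12.6%, 7 of 72). Efna4 and Ephb4 hold none of the 6 motifs. AP-1 matches were found in 3 of 72 member windows (6.75% of all windows), NFI-type sites in 4 (12.3%), NRF2 in 7 (10.2%) and the E-box CANNTG in 36 (66.2%). A match is a run of letters in these windows and was not tested for binding.

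Away from the starts, some regions, picked by their small p-values, changed far more than any start did. The typical region did not. At 1 week against NSPs the median log2 change was -0.18 over the 502 other member peaks. It was -0.39 over the 69 member peaks within 1 kb of a start or gene end. Among the semaphorins, Sema5b, a transmembrane semaphorin of progenitor zones, lost 13 of its 19 peaks at 24 h and gained 0. Its peak chr16:35613980-35614480, 72.9 kb downstream of the start, had 1262, 1163 and 1215 normalised reads in NSPs, 351, 389 and 318 at 24 h, 217, 178 and 201 at 72 h and 229, 209, 268 and 246 at 1 week. The drop to 24 h was -1.78 ± 0.13 (log2 change, SE, limma-trend adjusted p 4.5e-12), and TNF made no detectable difference to it (0.03 ± 0.13 at 24 h and -0.07 ± 0.13 at 72 h). Sema4b, a membrane semaphorin bound by plexin-B1, had 5 of 8 peaks lower at 24 h, and its peak chr7:80193978-80194478, 4.36 kb upstream of a start and inside the gene, fell furthest by 1 week. It had 689, 513 and 545 reads in NSPs, 183 to 277 at 24 h, 69.5 to 130 at 72 h and 24.7 to 36.6 at 1 week, a log2 change of -4.23 ± 0.21 SE (adjusted p 1.6e-16).

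Sema3a, a secreted repellent that collapses growth cones through neuropilin-1 and plexin-As, behaved otherwise, with 8 of 16 peaks higher and 3 lower at 24 h. Its peak chr5:13569975-13570475, 173 kb downstream of the start, had 7.59, 2.36 and 7.31 normalised reads in NSPs, 53.5, 67.9 and 89.9 at 24 h, 170, 117 and 171 at 72 h and 164, 154, 117 and 134 at 1 week. All NSP libraries were near the bottom of the scale there, and the log2 change at 72 h was 4.61 ± 0.30 SE (limma-trend adjusted p 1.3e-13). Sema3f had 3 higher and 0 lower of 6 at 24 h. Sema3e, a plexin-D1 ligand, lost its peak chr5:14162572-14163072 late, with 127 to 172 reads at 72 h and 41.3 to 65.4 at 1 week (log2 change -1.40 ± 0.18 SE, adjusted p 9.8e-07).

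Sema6d, a transmembrane semaphorin that binds plexin-A1, held the most peaks of any member, 41 over a gene of 578 kb. After 24 h 17 were higher and 9 lower, after 72 h 23 and 9, and at 1 week 17 and 13. The 2 kinds lay mixed along the gene. One of the strongest, chr2:124178864-124179364, 89.1 kb downstream of the nearest start, had 90.5, 39.6 and 31.9 reads in NSPs, 147, 152 and 166 at 24 h, 341, 417 and 385 at 72 h and 252, 258, 266 and 236 at 1 week. It thus peaked at 72 h, and the drop of 0.59 on the log2 scale to 1 week was called (limma-trend adjusted p 0.033).

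The plexins, the semaphorin receptors, lost more regions than they gained. Plxna2, a receptor for Sema6a and class 3 semaphorins, had 12 of 19 peaks lower and 2 higher at 72 h under the main scaling, with 12 lower under each of the others. Its peak chr1:194629154-194629654, 9.57 kb downstream of the start, had 1415, 1902 and 2025 normalised reads in NSPs, 813, 822 and 647 at 24 h, 377, 330 and 377 at 72 h and 524, 440, 561 and 590 at 1 week. The log2 change was -2.28 ± 0.14 SE at 72 h (limma-trend adjusted p 3.1e-14). Plxna4, with 24 peaks, had 9 higher and 12 lower at 1 week. Its peak chr6:32402819-32403319, 185 kb from the nearer gene end, fell from 608, 522 and 513 in NSPs to 304, 260 and 269 at 24 h, 127, 103 and 103 at 72 h and 37.0, 55.3, 68.2 and 63.3 at 1 week, a log2 change of -3.30 ± 0.17 SE (adjusted p 3.9e-16). Plxnd1, the Sema3e receptor, had 5 of 6 lower and 1 higher at 1 week, whereas Plxna1 had 4 of 8 higher and 3 lower.

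**Figure D3:**
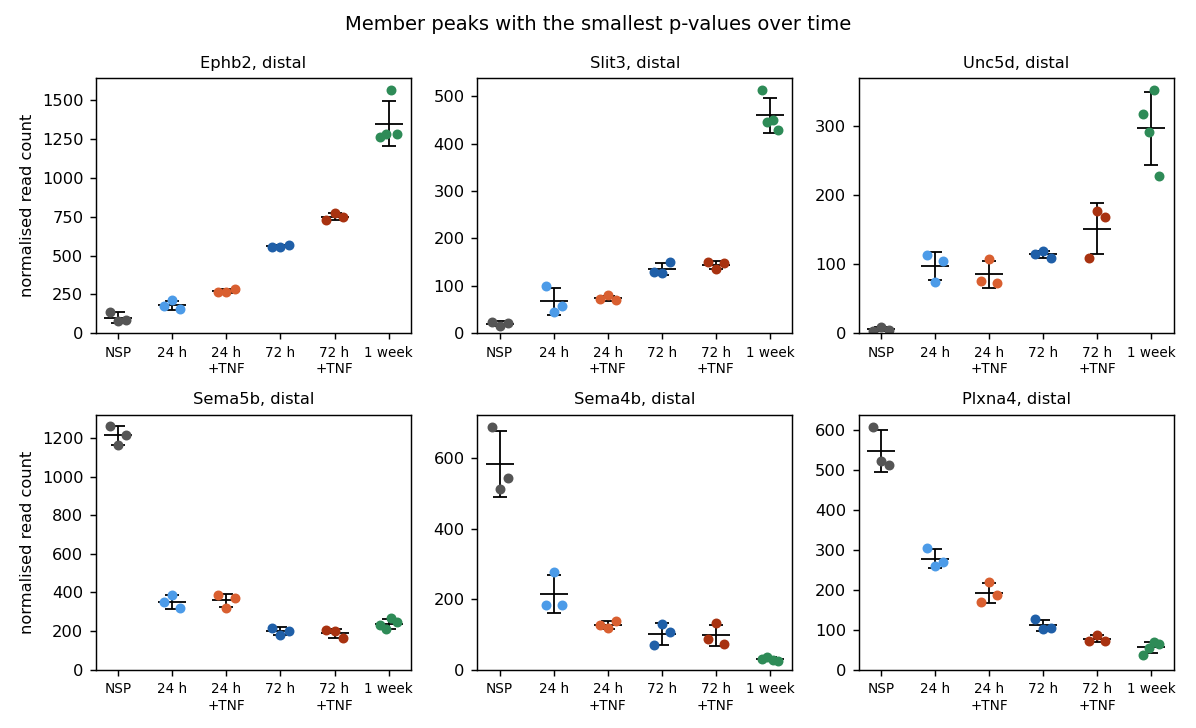
Normalised read count of 6 member peaks in each of the 19 libraries (points), with the mean and SD of each group (3 libraries, 4 at 1 week), on linear axes from 0. Ephb2, Slit3 and Unc5d are highest at 1 week, and Sema5b, Sema4b and Plxna4 are highest in NSPs; the 6 peaks lie 4.36 kb or more from a start or gene end.

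The Slit genes divided. Slits are secreted repellents of commissural axons and of migrating neuroblasts. Slit1 had 9 of 17 peaks lower and 0 higher at 24 h, 13 lower and 1 higher at 72 h and the same counts at 1 week. Slit2 had 6 of 10 lower at 72 h and at 1 week, and its peak chr5:48081427-48081927, 98.5 kb downstream of the start, had 610, 760 and 916 reads in NSPs, 266, 302 and 273 at 24 h, 126, 128 and 127 at 72 h and 177, 118, 154 and 151 at 1 week (log2 change at 72 h -2.55 ± 0.16 SE, limma-trend adjusted p 7e-14). Slit3, with 33 peaks over 587 kb, had 10 higher and 2 lower at 24 h and 13 higher and 8 lower at 1 week. Between 72 h and 1 week 17 of the 33 were higher and 4 lower, and with total-read scaling 11 and 7.

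At Slit3, the peak chr11:35369908-35370408, 249 kb downstream of the start, had 23.4, 15.1 and 21.9 normalised reads in NSPs, 99.1, 44.3 and 57.9 at 24 h, 130, 127 and 149 at 72 h and 513, 447, 451 and 430 at 1 week. Each group lay above the one before it, with no overlap of their libraries. The log2 change was 4.47 ± 0.20 SE at 1 week against NSPs (limma-trend adjusted p 1.2e-17) and 1.76 ± 0.20 SE against 72 h. A peak 1.96 kb upstream of the start, chr11:35119247-35119747, had 43.8 to 56.1 in NSPs and 235 to 293 at 1 week. The start peak of Slit3 itself was low, with a mean of 37.9 in NSPs, 24.8 at 72 h and 53.0 at 1 week.

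The Robos are the Slit receptors. Robo1 had 6 higher and 12 lower of 23 peaks at 1 week and Robo2 5 higher and 9 lower of 16. Robo2 had 7 peaks lower at 1 week than at 72 h and 1 higher. Total-read scaling gave 7 and 0, but under it the median log2 change over all peaks was -0.31. That scaling favours losses in this step and is no check on them. The start peaks of both changed little by 24 h (0.03 and -0.16), and at 1 week by -0.11 (not called) and -0.60 (called). Robo3 (4 peaks) and Robo4 (2 peaks, both shared with Robo3) had 0 calls at 1 week against NSPs.

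Netrin-1 and its Unc5 receptors, which turn attraction into repulsion, gave single large gains among many losses. The peak with the largest log2 change at 24 h among the named ones lay in Unc5d, at chr8:28973704-28974204, 246 kb from the nearer gene end. It had 2.92, 9.42 and 4.65 normalised reads in NSPs, 113, 73.8 and 105 at 24 h, 115, 120 and 110 at 72 h and 317, 291, 352 and 227 at 1 week, for log2 changes of 3.98 ± 0.27 SE at 24 h and 5.58 ± 0.25 SE at 1 week (limma-trend adjusted p 8.8e-13 and 1.4e-17). A second Unc5d peak, chr8:28679730-28680230, was low until 72 h, with 14.6 to 27.9 in NSPs, 24.4 to 30.6 at 72 h and 139 to 164 at 1 week. Unc5c, in contrast, had 9 lower and 1 higher of 15 at 1 week. Ntn1 had 5 higher and 6 lower of 17.

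Among the Eph receptors, Ephb2, which binds ephrin-Bs in progenitor niches and at synapses, had 24 peaks, 3 higher and 8 lower at 24 h, but 10 higher and 6 lower at 1 week. A neighbouring pair of them rose by 1 week. The peak chr4:136776456-136776956, 59.3 kb downstream of the start, had 138, 74.4 and 82.4 normalised reads in NSPs, 174, 211 and 153 at 24 h, 556, 555 and 570 at 72 h and 1264, 1281, 1567 and 1286 at 1 week. Its log2 change at 1 week was 3.81 ± 0.15 SE (limma-trend adjusted p 3.1e-19), the smallest p among the member peaks. The other, chr4:136781755-136782255, went from 188 ± 18.5 (SD, n = 3) in NSPs to 1094 ± 26.0 (n = 4) at 1 week, while its log2 change at 24 h was 0.12 (adjusted p 0.43). One more, chr4:136749812-136750312, went the other way, from 437, 346 and 299 in NSPs to 80.8, 97.4 and 65.3 at 24 h.

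Ephb1, with 19 peaks, showed a transient one. The peak chr9:102096787-102097287, 258 kb downstream of the start, had 20.4, 21.7 and 27.9 normalised reads in NSPs, 291, 198 and 260 at 24 h, 113, 110 and 96.9 at 72 h and 91.7, 91.2, 123 and 57.9 at 1 week. All 24 h libraries lay above all others without TNF, and the log2 change at 24 h was 3.36 ± 0.21 SE (limma-trend adjusted p 1.5e-13). Another Ephb1 peak, chr9:102243229-102243729, fell from 277 to 293 in NSPs to 28.1 to 41.8 at 1 week. In the EphA group Epha3 had 5 of 8 peaks lower and 1 higher at 1 week and Epha4 4 of 12 higher and 2 lower. The ephrin-B ligands, which signal backwards into the cell that carries them, had only losses among their called peaks: both peaks of Efnb1 and 2 of 3 of Efnb2 were lower at 1 week.

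TNF was then set against no TNF at the same time. At 24 h, 31 member peaks were higher and 16 lower with TNF (7.06% and 3.53% of all peaks were), which is 5.43% and 2.80% of the members. At 72 h, 34 were higher and 25 lower (6.24% and 5.55% of all peaks), which is 5.95% and 4.38%. In this fit each share was below that of all peaks. With total-read scaling the 72 h counts were 26 higher and 36 lower (4.55% and 6.30% of the members, 4.75% and 7.43% of all peaks). With only the 2 compared groups in the fit the 72 h counts were 62 and 37 (10.9% and 6.48% of the members, 9.83% and 8.64% of all peaks), and at 24 h 50 and 39 (8.76% and 6.83%, against 9.52% and 6.47%). Leaving out 24 h with TNF replicate 3 left 12 higher and 7 lower at 24 h, and leaving out 72 h with TNF replicate 3 left 18 higher at 72 h. Without 72 h replicate 1, 17 were lower at 72 h. The calls fell on 25 genes at 24 h and 27 at 72 h. Of the 59 start peaks, 1 was called at 24 h and 4 at 72 h, or 1.69% and 6.78%, against 1.90% and 3.84% of all start-site peaks.

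Among the families, the EphB receptors had 7 higher and 1 lower with TNF at 24 h, the Robos 3 and 0 at 24 h and 6 and 1 at 72 h, the ephrin-As 2 and 0 and then 4 and 0, the EphA receptors 3 and 0 and then 2 and 0, and netrin-1 3 and 0 and then 2 and 0. Shares called higher were 14.6% of EphB peaks at 24 h, and 6.98% and then 14.0% of Robo peaks. They were 8.70% and then 17.4% of ephrin-A peaks, 5.88% and 3.92% of EphA peaks, and 17.6% and 11.8% of netrin-1 peaks. Over all peaks, 7.06% were higher at 24 h and 6.24% at 72 h. The membrane semaphorins had 4 higher and 7 lower at 24 h and 4 and 13 at 72 h. Sema6d alone held 5 of the 7 and 8 of the 13 losses, and the 4 gains at each time lay in other genes. These losses were 4.96% and 9.22% of the peaks of this family, against 3.53% and 5.55% of all peaks. The plexins had 4 and 4 at each time, the Slits 2 and 2 and then 5 and 1, and the secreted semaphorins 3 and 1 at each time. The higher calls were 4.94% of plexin peaks and 6.38% of secreted semaphorin peaks at each time. They were 3.33% and then 8.33% of Slit peaks. The Unc5 receptors had 0 calls at 24 h and 1 higher and 3 lower at 72 h, or 2.13% and 6.38% of their peaks. In the EphB receptors at 72 h, total-read scaling turned 3 higher and 1 lower into 2 and 3, and TMM scaling into 3 and 3. The directions of the membrane semaphorins, Robos, EphA receptors and netrin-1 were the same under the other scalings tried.

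The largest gain under TNF was in Sema5a, a transmembrane semaphorin that binds plexin-B3. The peak chr15:32413185-32413685, 169 kb downstream of the start, had 46.7, 39.8 and 48.0 normalised reads at 24 h and 208, 214 and 181 with TNF, and 25.7, 16.7 and 12.7 at 72 h and 72.4, 132 and 101 with TNF. NSPs had 21.9 to 23.6 there and 1 week libraries 11.5 to 32.0, so that the TNF-treated libraries stood above every untreated one. The log2 change was 2.14 ± 0.33 SE at 24 h and 2.42 ± 0.33 SE at 72 h (limma-trend adjusted p 4.6e-05 and 8.2e-06). The Slit3 peak chr11:35473595-35474095, 352 kb downstream of the start, had 33.02, 28.0 and 32.0 at 24 h and 95.5, 97.0 and 99.7 with TNF, and 32.2, 15.6 and 16.6 at 72 h and 65.3, 75.4 and 80.4 with TNF. Its log2 change was 1.62 ± 0.30 SE and 1.81 ± 0.30 SE. Without TNF the Sema5a peak was higher at 24 h than in NSPs (0.96 ± 0.33 SE, adjusted p 0.017), and the Slit3 change of 0.33 was not called.

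Plxna2, whose peaks mostly closed with time, had 3 higher and 1 lower under TNF at 24 h and 4 higher and 1 lower at 72 h. The peak chr1:194781514-194782014, 162 kb downstream of the start, had 41.0, 54.6 and 48.0 at 24 h and 172, 165 and 187 with TNF (log2 change 1.85 ± 0.23 SE, limma-trend adjusted p 2.9e-06), and 53.5 to 88.8 at 72 h and 106 to 132 with TNF (0.81 ± 0.23 SE, adjusted p 0.021). The peak chr1:194660366-194660866 had 47.8, 64.9 and 53.0 at 24 h and 152, 172 and 194 with TNF. In Ephb2, 6 of 24 peaks were higher with TNF at 24 h and 0 lower, among them both peaks that rose by 1 week: chr4:136781755-136782255 had 199, 192 and 222 at 24 h and 332, 343 and 444 with TNF (log2 change 0.86 ± 0.12 SE, adjusted p 1.9e-05). At 72 h another peak of the 24 was the 1 called, while this one changed by 0.36 (adjusted p 0.052).

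Epha2, a receptor of ephrin-As, had 2 of 6 peaks higher at each time. The peak chr4:141310282-141310782, 9.31 kb downstream of the start, had 32.2, 50.2 and 37.0 at 72 h and 104, 115 and 109 with TNF (log2 change 1.46 ± 0.25 SE, limma-trend adjusted p 0.00018), and 82.9 to 112 at 1 week without TNF. Efna4, one of its possible ligands, had 2 of 5 peaks higher at 72 h, with log2 changes of 0.96 and 1.25. Robo1 had 5 of 23 higher and 1 lower at 72 h, with log2 changes from -1.02 to 2.17. The start-region peak of Ntn1, chr11:68386681-68387181, at the nearer gene end, had 313, 372 and 335 at 72 h and 570, 520 and 592 with TNF, against 714, 512 and 481 in NSPs (0.72 ± 0.14 SE, adjusted p 0.00054). The start of Ephb1, whose window was printed above, had 776, 743 and 844 at 72 h and 937, 1092 and 1020 with TNF (0.37 ± 0.11 SE, adjusted p 0.031), and the 1 week libraries had 1204 to 1452.

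**Figure D4:**
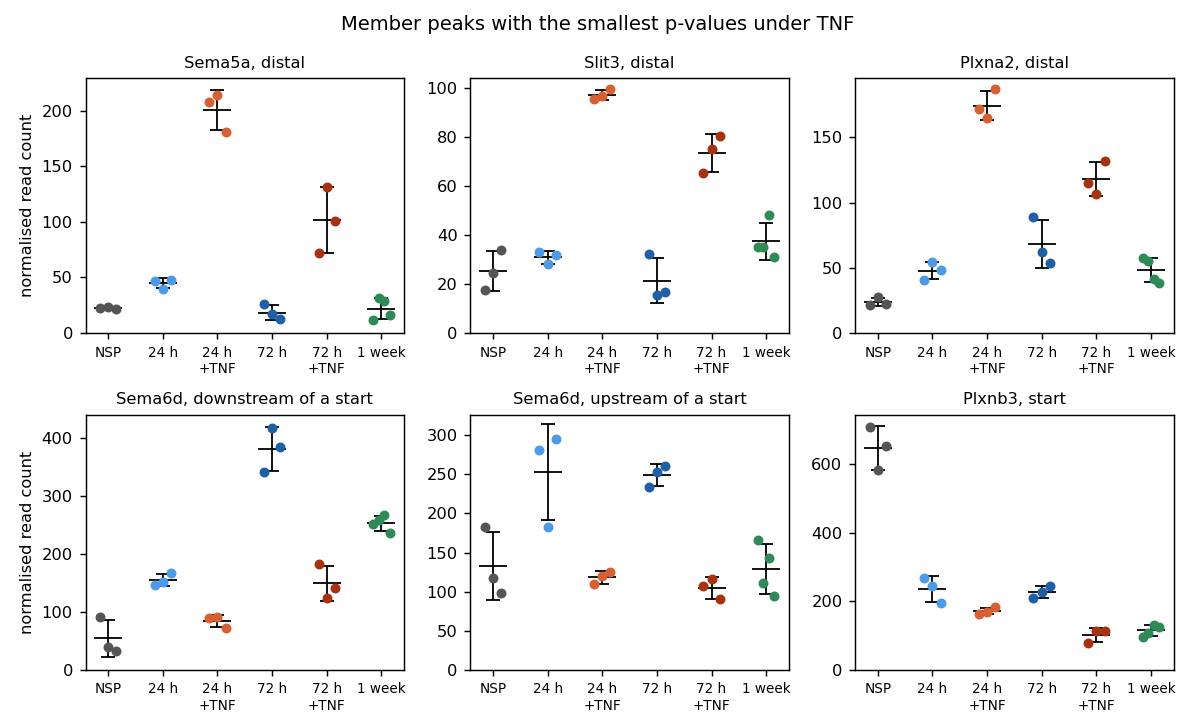
Normalised read count of 6 member peaks in each of the 19 libraries (points), with the mean and SD of each group (3 libraries, 4 at 1 week), on linear axes from 0. The TNF-treated libraries stand above the untreated libraries of their time at the Sema5a, Slit3 and Plxna2 peaks and below them at both Sema6d peaks, and at the Plxnb3 start they lie below them at 24 h and 72 h.

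Losses under TNF were concentrated by count in Sema6d, with 5 of 41 peaks lower at 24 h and 8 lower at 72 h and 0 higher at either time. The 8 had log2 changes from -1.36 to -0.57 at 72 h. The peak chr2:124550290-124550790, 103 kb upstream of the nearest start and inside the gene, had 281, 183 and 296 at 24 h and 110, 120 and 126 with TNF, and 234, 254 and 261 at 72 h and 107, 117 and 90.0 with TNF. The log2 change was -1.06 ± 0.21 SE at 24 h and -1.25 ± 0.21 SE at 72 h (limma-trend adjusted p 0.0011 and 0.00019). At the peak chr2:124178864-124179364, described above as highest at 72 h, TNF lowered the reads from 341, 417 and 385 to 182, 124.2 and 140 at 72 h and from 147, 152 and 166 to 89.3, 90.5 and 71.7 at 24 h (-1.36 ± 0.23 SE and -0.89 ± 0.23 SE). No library with TNF overlapped one without TNF of the same time at either peak.

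The largest drop under TNF, noted after the values were seen and outside the rule for named peaks, was in Ephb1 at chr9:102270556-102271056, with 86.2, 47.9 and 54.8 at 72 h and 24.1, 4.43 and 10.8 with TNF (-2.40 ± 0.43 SE, limma-trend adjusted p 0.00032). Other losses were single. The Plxnb3 start, already lower than in NSPs, had 211, 227 and 246 at 72 h and 78.7, 112 and 114 with TNF, a log2 change of -1.17 ± 0.16 SE (limma-trend adjusted p 1.1e-05); at 24 h it had 164, 169 and 183 with TNF and the change of -0.44 was not called (adjusted p 0.079). With TNF at 72 h it was thus near the 97.0 to 132 of the 1 week libraries. Plxnc1, the receptor of Sema7a, lost the peak chr10:94890063-94890563 at both times, from 77.4, 75.2 and 65.3 to 38.9, 36.6 and 28.0 at 24 h (-1.06 ± 0.23 SE) and from 123.5, 151 and 131 to 78.7, 68.0 and 48.0 at 72 h (-1.07 ± 0.23 SE). The Sema3a peak that opened in the first days had 170, 117 and 171 at 72 h and 59.0, 60.6 and 39.6 with TNF (-1.51 ± 0.30 SE, adjusted p 0.00093). Unc5c had 3 of 15 peaks lower and 1 higher and Sema4d 2 of 10 lower at 72 h. A peak near an end of Efnb3, chr11:69552888-69553388, which also lies by Dnah2, was lower at 24 h (-1.01 ± 0.23 SE).

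**Figure D5:**
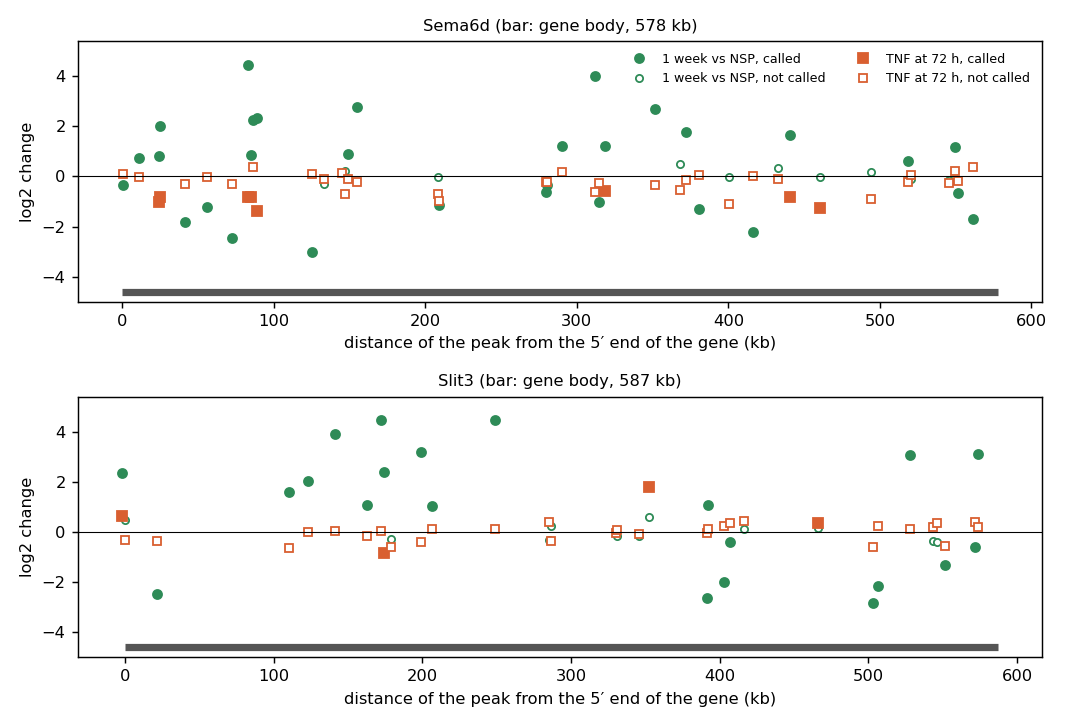
Log2 change of each peak of Sema6d (41 peaks) and Slit3 (33 peaks) against its distance from the 5′ end of the gene in kb, for 1 week against NSPs (green circles) and TNF at 72 h (orange squares), with called peaks filled and the gene body as a grey bar. In both genes, higher and lower peaks at 1 week alternate along the body, and the 8 peaks of Sema6d called under TNF are all below 0.

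The 2 TNF comparisons share no library. Across the 571 member peaks their log2 changes correlated at 0.59 by Pearson and 0.47 by Spearman (0.65 and 0.55 in all peaks), given as a description because peaks are not independent. Of 81 member peaks called at either time, 71 changed in the same direction at both (87.7%, against 93.9% of all such peaks). Of those, 16 were higher at both times and 9 lower at both. No member peak was higher at one time and lower at the other by both calls. The interaction of TNF with time was called at 0 member peaks in limma-trend, and in all peaks 0% were higher and 0.00112% lower. At an unadjusted p under 0.05 it was reached by 52 member peaks (9.11%, against 7.51% of all peaks), and edgeR and DESeq2 each called 0 of the members. Whether the response to TNF differs between 24 h and 72 h at these genes could thus not be detected with 3 libraries a group.

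The TNF comparison at 72 h and that of 1 week with NSPs share no library. Of the 25 member peaks lower with TNF at 72 h, 15 were higher and 7 lower at 1 week than in NSPs, or 60.0% and 28.0%. Of all 4932 peaks lower with TNF, 48.7% were higher and 27.7% lower. Of the 34 member peaks higher with TNF at 72 h, 13 were higher and 6 lower at 1 week than in NSPs (38.2% and 17.6%, against 50.4% and 22.4% of all 5551 such peaks).

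A pair of lists gave the rest of the pathway, co-receptors and related ligands (18 genes, 178 peaks) and effectors of the cytoskeleton (38 genes, 436 peaks). At 1 week against NSPs, 40 peaks of the first list were higher and 88 lower and 142 of the second were higher and 159 lower, with medians of -0.41 and -0.05. These are 22.5% and 49.4% of the first list and 32.6% and 36.5% of the second, against 33.7% and 33.6% of all peaks. With TNF, 9 and 7 of the first list and 32 and 23 of the second were higher and lower at 24 h, and 9 and 11, and 20 and 29 at 72 h. The shares were 5.06% and 3.93% of the first list and 7.34% and 5.28% of the second at 24 h (all peaks 7.06% and 3.53%), and 5.06% and 6.18%, and 4.59% and 6.65% at 72 h (all peaks 6.24% and 5.55%). Named are genes among those with the smallest p-values of the lists. Peaks of Limk2, a kinase that phosphorylates cofilin, and Rnd1, a protein bound by plexins, were higher at 24 h by 0.89 and 1.19. Vav2, an exchange factor downstream of Eph receptors, and Chl1, an adhesion molecule that partners neuropilins, were higher at 72 h by 1.21 and 0.91, all 4 with limma-trend adjusted p-values of 6.5e-05 or less.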

How the data were processed

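ATAC-seq was done on 19 libraries in 6 groups. Per the labels, reads were aligned to mm10. The tools in the submitters' processing notes are FastQC, Trim Galore, Bowtie2, SAMtools and MACS2, and the study's methods add blacklist removal, HOMER and DiffBind. Versions, duplicate handling, the Tn5 shift and the normalisation are not given in the sources used here. The authors deposited a signal per peak and library, which is the reads divided by 1 size factor per library: in every library 100% of values were whole multiples, within 0.01, of the lowest one. Libraries thus held 9640256 to 39349111 reads in peaks.

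Peaks were fitted on log2(value + 1) by limma-trend (limma 3.58.1, R 4.3.3) over all 19 libraries with a mean per group. The planned test for signal values was kept. edgeR's filterByExpr with a minimum count of 10 kept 88919 peaks and left out 1235. Benjamini-Hochberg adjustment ran over all kept peaks. Fold changes on this scale understate those of low peaks. Of 10849 member values, 51 were 3 reads or fewer. The study's methods speak in general of independent biological experiments, but the labels do not say which libraries came from separate cultures, so p-values measure the spread between these samples, which may be partly technical. edgeR 4.0.16 and DESeq2 1.42.0 on the recovered reads, other scalings, pseudocount 8, no filter, a mean minimum of 50, only the compared groups, a replicate block and leaving out each library were alternatives. On recovered reads edgeR called 153 member peaks higher and 253 lower at 1 week against NSPs. The fit was tested on simulated data. Peaks named are, per comparison, up to 3 per direction with the smallest p among called peaks whose groups do not overlap, each gene's start peak, genes with the highest shares of called peaks, the 2 genes of each family with most peaks, and pathway genes with the smallest p under TNF. The members and lists were chosen with earlier results of these data known. Gene bodies and starts are from RefSeq, GRCm38.p6; exons were not assigned. A result of the pathway lists that the rule would name is not reported here.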

Additional observations from a re-analysis of the deposited data

Results flagged for a closer look

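At 6 of 85 peaks examined in the 1 week group, the group of 4 libraries, 1 library lay far from the others: its gap to the nearest library, as a share of the group's range, was above Dixon's 95% critical value for 4 samples, which chance alone passes in about 1 of 20 groups. The share was 0.922 at the Ephb2 peak chr4:136776456-136776956, where replicate 3 had 1567 normalised reads and the others 1264 to 1286. It was 0.903 at the Efnb2 start peak, where replicate 2 had 648 and the others 796 to 814. It was 0.868 at the Plxna2 start peak, where replicate 2 had 383 and the others 417 to 422.5, and 0.850 at the Plxna2 peak chr1:194660366-194660866, where replicate 3 had 110.03 and the others 67.8 to 72.9. It was 0.859 at a Slit2 peak, where replicate 4 had 374 and the others 318 to 325, and 0.8294 at an Unc5c peak, where replicate 3 had 788 and the others 626 to 651. Replicate 3, the highest library at 3 of the 6, had the fewest reads of the group.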

How the results depend on the processing

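For member peaks with total-read scaling, 110 were lower at 24 h with TNF against NSPs, and 39 were higher and 219 lower at 1 week against 72 h. In that last step 72 were higher with loess scaling and 73 with edgeR, and 68 were lower with a mean minimum of 50. With only the compared groups, TNF gave 50 higher and 39 lower at 24 h and 62 higher at 72 h. Leaving out 1 library in turn gave 106 to 131 higher and 128 to 167 lower at 24 h, 123 to 140 and 148 to 167 at 24 h with TNF, 114 to 128 and 196 to 226 at 72 h, 194 to 213 lower at 72 h with TNF, 153 to 164 and 227 to 245 at 1 week against NSPs, 86 to 104 and 85 to 108 at 1 week against 72 h, 12 to 24 and 7 to 18 for TNF at 24 h, and 18 to 27 and 17 to 23 for TNF at 72 h. The interaction had 0 calls throughout. Replicate numbers did not pair the samples: 1 of 45 pairs from the titles correlated above 0.1. With the title number as a replicate block, TNF at 72 h had 33 higher and 25 lower, and with the library-name number 20 and 17. Start peaks that changed sign at 1 week against 72 h were Efna4 (-0.00798) and Sema6c (-0.0658) with total-read scaling, and Efnb2 (-0.12), Plxnb1 (-0.0295), Plxnb2 (-0.19), Sema6c (-0.21) and Unc5b (-0.0274) with loess. Plxnb2 at 72 h with TNF against NSPs became 0.00579 with loess. Of the other values of named peaks, 4186 kept direction and side of the threshold and 383 lost the call. The cause was not tested. Depth limits calls at the lowest peaks.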
